A study of Oryctolagus cuniculus with 16 samples.

Results

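The levels of 10 genes that mark resident macrophages of the marrow and other tissues (*TIMD4*, *CD5L*, *FOLR2*, *SIGLEC1*, *CD163*, *MERTK*, *AXL*, *MARCO*, *MRC1* and *VSIG4*) were described in the femoral head of rabbits with induced Perthes disease and of control rabbits. They were taken by gene symbol, 10 of the 20255 genes listed in the deposited gene table. They were selected on their CPM and fold changes between these same 2 groups, so every difference between the groups in these 10 genes is given as a description, without a test. Perthes disease is an osteonecrosis of the growing femoral head that follows loss of its blood supply. The Perthes disease group held 5 rabbits, in which per the methods of the study the femoral neck was ligated and the ligamentum teres was cut at 8 weeks of age. The control group held 3 rabbits whose labels read wild type (WT). The labels enter both groups under genotype, although the model is surgical and made in wild-type animals. The strain, the time from surgery to sampling, and whether the controls had a sham operation were not given in the sources used here. Each rabbit gave 1 total RNA library of the femoral head.

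Resident macrophages settle in a tissue early, renew themselves locally and clear dying cells, old red cells and debris. In marrow they sit at the centre of erythroblast islands and along the sinusoids, where they engulf the nuclei that erythroblasts expel. They carry receptors that bind phosphatidylserine on dying cells directly or through bridging proteins, and scavenger receptors that take up haemoglobin, lipoproteins and glycoproteins. When tissue is injured, blood monocytes enter and become macrophages that carry part of the same receptor set.

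The libraries held 26757087 to 29461482 counts each, so depth was alike in both groups. Values are CPM, that is counts relative to library size, scaled between libraries by the trimmed mean of M values (TMM). Summed CPM of marker lists showed cartilage (33619 to 135935), bone-forming cells (45988 to 145324) and marrow in the tissue, while skeletal muscle markers summed to at most 10.4 CPM. Marrow cell markers moved with the groups: erythroblast markers summed to 28.8 to 1508 CPM in Perthes disease and 3346 to 3739 CPM in controls, and neutrophil lineage markers to 15.2 to 1167 against 4668 to 14842 CPM. All 7 erythroblast and all 6 neutrophil markers listed lay lower in every Perthes rabbit, none at 0. Perthes rabbit 2 had the most erythroblast signal of the Perthes rabbits (1508 CPM), and Perthes rabbit 4 had the most cartilage signal (135935 CPM) and the least general macrophage signal (1144 CPM, against 2507 to 5033 CPM in the other Perthes rabbits). In a bulk library, fewer cells of a type and less RNA per cell cannot be told apart.

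*TIMD4*, which encodes a phosphatidylserine receptor (TIM-4) by which resident macrophages tether dying cells, was close to absent in Perthes disease. The 5 Perthes rabbits had 0.0338, 0.374, 0, 0 and 0.238 CPM, from 1, 10, 0, 0 and 7 counts, and the 3 controls had 25.8, 25.5 and 19.6 CPM, from 723, 724 and 590 counts. The groups were far apart, and only Perthes rabbits 2 and 5 rose above the 3 counts taken here as the floor of detection. The mean was 0.129 ± 0.169 CPM (SD, n = 5) in Perthes disease and 23.7 ± 3.50 CPM (SD, n = 3) in controls, a 183-fold lower mean, with a fitted log2 fold change of -7.48 (SE 0.74). Perthes rabbit 2 alone held 55.6% of the *TIMD4* counts of the Perthes group, and the log2 fold change was -8.32 without it.

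*CD5L* encodes a secreted protein (also called AIM) that resident macrophages release, and it had the next largest difference among the 10 genes. Its levels were 0.507, 4.42, 0.551, 0.582 and 0.442 CPM in Perthes disease and 56.4, 34.3 and 46.9 CPM in controls. The other Perthes rabbits sat together and Perthes rabbit 2 stood above them, still far under every control. The means were 1.30 ± 1.74 and 45.9 ± 11.1 CPM (SD), a 35.3-fold lower mean in Perthes disease (log2 fold change -5.15, SE 0.77). Perthes rabbit 2 held 66.7% of the *CD5L* counts of its group, and without it the log2 fold change was -6.45. This rabbit also had the highest erythroblast marker sum of its group, given above. The part of erythroblast and other marrow cells in the *TIMD4* and *CD5L* differences was not tested.

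**Figure D1:**
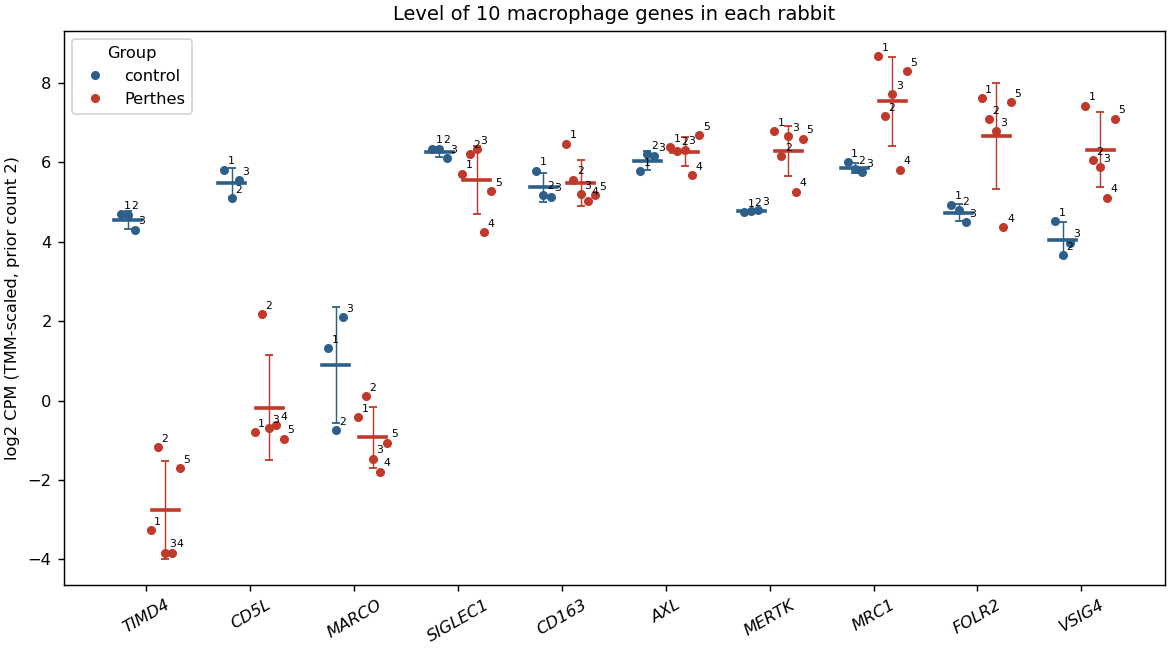
Levels of the 10 resident macrophage genes in each rabbit, as log2 CPM with a prior count of 2; each point is 1 rabbit (5 Perthes, 3 control) and each line gives the group mean with its SD. *TIMD4* and *CD5L* lay far under the controls in every Perthes rabbit, while *MERTK* and *VSIG4* lay above them in every Perthes rabbit.

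*MARCO*, a scavenger receptor for bacteria and particles, was low in both groups. The Perthes rabbits had 0.675, 1.01, 0.294, 0.218 and 0.408 CPM and the controls 2.43, 0.529 and 4.22 CPM. The groups overlapped because control rabbit 2 (15 counts) lay within the Perthes range of 6 to 27 counts. The mean was 4.59-fold lower in Perthes disease (log2 fold change -2.19, SE 0.66), and the log2 fold change was -1.50 without control rabbit 3, the highest of the controls.

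*SIGLEC1*, the sialic acid receptor CD169 of marrow macrophages, had 52.2, 74.6, 80.2, 18.8 and 38.8 CPM in Perthes disease and 81, 80.7 and 68.8 CPM in controls. Perthes rabbits 2 and 3 lay within the control range and the other 3 under it (log2 fold change -0.54, SE 0.40). *CD163*, the receptor for haptoglobin-haemoglobin complexes, had 88.6, 47, 36.6, 32.7 and 35.9 CPM in Perthes disease and 55.2, 36.5 and 35.1 CPM in controls. Only Perthes rabbit 1 stood above the controls, and the log2 fold change of 0.19 (SE 0.35) became -0.15 without that rabbit. *AXL*, a receptor tyrosine kinase of the TAM family (TYRO3, AXL, MERTK) that recognises dying cells through GAS6, had 83, 78.1, 79.9, 51.2 and 103 CPM in Perthes disease and 54.8, 74.2 and 70.8 CPM in controls. All Perthes rabbits but rabbit 4 lay above every control, and Perthes rabbit 4 lay under every control (log2 fold change 0.25, SE 0.23).

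*MERTK*, the TAM kinase used most by macrophages to engulf dying cells, had 111, 71.4, 101, 38.3 and 97.2 CPM in Perthes disease and 26.9, 27.3 and 27.6 CPM in controls. All 5 Perthes rabbits lay above the controls, which differed little among themselves. The mean was 3.07-fold higher (83.8 ± 29.3 against 27.3 ± 0.352 CPM, SD, log2 fold change 1.62, SE 0.33). *VSIG4*, the complement receptor CRIg of resident macrophages, had 172, 66.1, 58.8, 34.4 and 137 CPM in Perthes disease and 22.9, 12.6 and 15.7 CPM in controls. It too separated the groups, and it had the highest fitted difference of the 10 genes in the upward direction, 5.50-fold by the means (93.8 ± 58.2 against 17.1 ± 5.29 CPM, SD, log2 fold change 2.46, SE 0.55).

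*FOLR2*, the folate receptor of resident and M2-type macrophages, had 195, 136, 111, 20.4 and 183 CPM in Perthes disease and 30.5, 27.5 and 22.4 CPM in controls. All Perthes rabbits but rabbit 4 lay well above the controls, and Perthes rabbit 4 lay just under them (4.81-fold higher mean, log2 fold change 2.27, SE 0.61). *MRC1*, the mannose receptor CD206, had 406, 144, 210, 56.4 and 313 CPM in Perthes disease and 64, 56.9 and 53.7 CPM in controls. Perthes rabbit 4 fell within the control range and the other 4 lay above it (3.88-fold higher mean, log2 fold change 1.96, SE 0.56).

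All 10 genes passed the low-count filter that left 15305 genes for the fit. By CPM, 2 of the 10 lay higher in every Perthes rabbit than in any control (*MERTK*, *VSIG4*) and 2 lay lower (*TIMD4*, *CD5L*). Over all genes tested, 11.2% lay apart in the upward direction and 13.9% in the downward direction, 25.2% in all. The median log2 fold change was 0.22 over the 10 genes and 0.02 over all genes tested, with 6 of the 10 above 0 and 4 below. Without Perthes rabbit 4, *FOLR2*, *AXL* and *MRC1* also lay apart, which made 5 higher. Without control rabbit 2, *MARCO* also lay apart, and without control rabbit 3 *SIGLEC1* did, so that 3 were lower in each case.

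Within the Perthes group, rabbit 4 stood at the bottom for most of these genes, while the rabbit at the top differed between them. Perthes rabbit 4 had the lowest CPM of the 5, or shared it, for 9 of the 10 genes, the exception being *CD5L*. Perthes rabbit 1 had the highest CPM for 5 genes (*FOLR2*, *CD163*, *MERTK*, *MRC1* and *VSIG4*) and Perthes rabbit 2 for 3 (*TIMD4*, *CD5L* and *MARCO*). The 3 genes at their highest in Perthes rabbit 2 were the 3 whose mean was over 4-fold lower in Perthes disease.

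**Figure D2:**
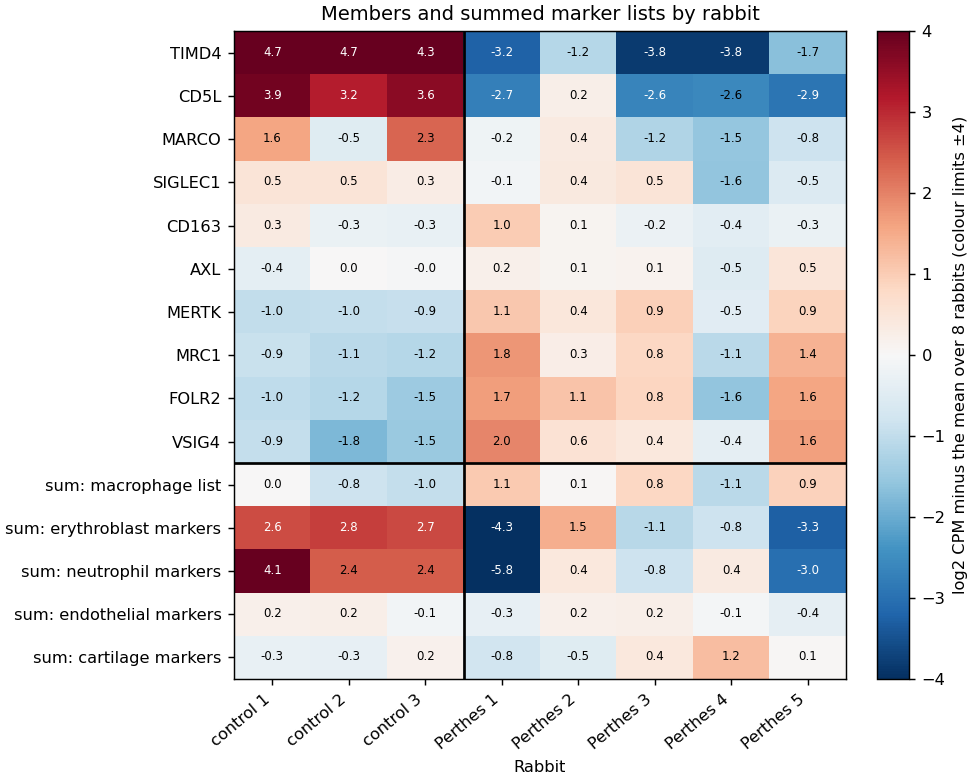
Heat map of log2 CPM minus the mean over all 8 rabbits for the 10 resident macrophage genes and for summed marker lists; columns are rabbits and the colour gives the difference in log2 units. Perthes rabbit 4 was low for most macrophage genes and high for cartilage markers, and Perthes rabbit 2 was the highest of its group for *TIMD4*, *CD5L* and erythroblast markers.

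To set each gene against the general macrophage signal of its library, its CPM was divided by the summed CPM of 13 genes of macrophages in general and given per 1000 CPM of that sum. Neutrophils carry some of the 13 too (*ITGAM*, *CYBB*, *TYROBP*, *FCER1G*), and control rabbit 1, with the highest neutrophil marker sum (14842 CPM against 4680 and 4668 CPM in the other controls), also had the highest denominator of the controls (2451 CPM against 1362 and 1247 CPM). The part of neutrophils in the denominator was not tested. The denominator averaged 3507 ± 1632 CPM in Perthes disease and 1687 ± 664 CPM in controls (SD), 2.08-fold higher. *MPEG1* alone averaged 1303 CPM of this in Perthes disease and 212 CPM in controls. The denominator of 3 genes given below leaves *MPEG1* out. In Perthes rabbit 4 the denominator was 1144 CPM, under every control, which raises genes on this scale. In the other Perthes rabbits it was 2507 to 5033 CPM, above every control, which lowers them. *TIMD4* was then 0.0416 ± 0.064 in Perthes disease against 15.0 ± 4.15 in controls, 361-fold lower, and *CD5L* was 0.520 ± 0.716 against 28.6 ± 7.90, 55.1-fold lower. Both differences were wider on this scale than by CPM. *SIGLEC1*, which overlapped by CPM, lay lower in every Perthes rabbit (16.8 ± 8.41 against 49.2 ± 14.1, a ratio of 0.341). *VSIG4* (26.9 ± 7.81 against 10.4 ± 1.90, 2.59-fold) and *MRC1* (61.0 ± 13.4 against 37.0 ± 9.44, 1.65-fold) lay higher in every Perthes rabbit. For *MRC1*, Perthes rabbit 4, which has the low denominator, had 49.3 against at most 43.1 in controls, while by CPM it lay within the control range. *FOLR2* (35.3 ± 14.0 against 16.9 ± 4.00) and *MERTK* (25.8 ± 5.16 against 17.7 ± 5.93) overlapped between the groups, and so did *CD163*, *AXL* and *MARCO*. *CD163* and *AXL*, slightly above 0 by CPM, had log2 ratios of means of -0.67 and -0.74 per macrophage signal. In all, 2 of the 10 lay higher and 3 lower in every Perthes rabbit on this scale, where 1.1% of all genes tested lay higher and 12.1% lower. With *CD68*, *CSF1R* and *ADGRE1* alone as denominator, 0 of the 10 lay higher and 6 lower, against 0.758% and 50.9% of all genes tested, so nothing is read from the 6. Without *C1QC* in the denominator, 1 lay higher and 4 lower, against 0.908% and 13.8% of all genes tested. *TIMD4* and *CD5L* stayed lower in every Perthes rabbit with each denominator.

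**Figure D3:**
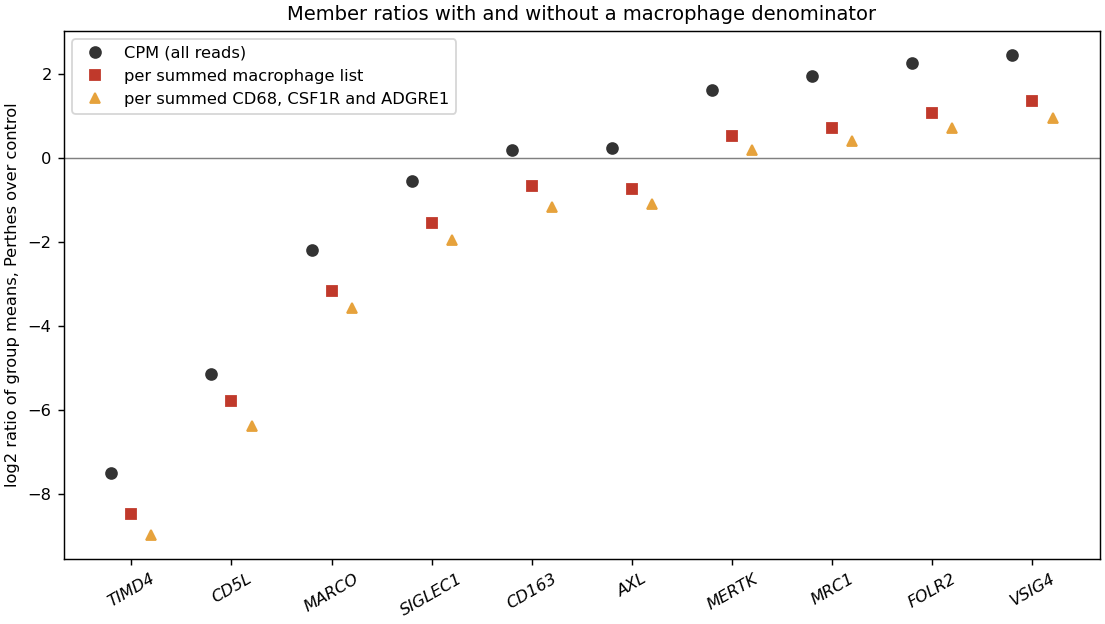
Log2 ratio of the Perthes mean to the control mean for each of the 10 genes, by CPM, per CPM of 13 general macrophage genes, and per CPM of *CD68*, *CSF1R* and *ADGRE1*; points are ratios of group means (5 Perthes and 3 control rabbits) and 0 marks equal means. *TIMD4* and *CD5L* lay far below 0 on all 3 scales, while *FOLR2*, *MRC1*, *MERTK* and *VSIG4* all moved toward 0 when set against macrophage signal.

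The genes of macrophages in general that served as denominator were tested by edgeR's quasi-likelihood test with Benjamini-Hochberg adjustment, as were all lists that follow. These lists were chosen with earlier results of these data known, so their counts of calls are a description and give no independent support. Over all 15305 genes, 6.21% were called higher and 8.86% lower in Perthes disease (adjusted p under 0.05). Of the 13 general macrophage genes, 4 were called higher and 1 lower, with 11 above 0 and a median log2 fold change of 0.79. *MPEG1*, the pore-forming perforin-2, rose from 212 ± 21.2 to 1303 ± 772 CPM (SD, log2 fold change 2.62, SE 0.62, adjusted p = 0.0247). *CD14*, a co-receptor for lipopolysaccharide, rose by a log2 fold change of 2.37 (SE 0.65, adjusted p = 0.0397), with the groups overlapping by CPM. *CD68*, a lysosomal glycoprotein, rose from 75.4 ± 3.89 to 306 ± 129 CPM (log2 fold change 2.02, SE 0.41, adjusted p = 0.0165), and *CSF1R*, the receptor for the macrophage growth factor CSF1, was the other gene called higher (1.07, SE 0.27, adjusted p = 0.0326). *C1QC*, a chain of complement C1q, fell from 171 ± 46.7 to 40.2 ± 18.3 CPM (log2 fold change -2.09, SE 0.36, adjusted p = 0.0133). Its gene ID carries the symbol *C1QA* in the RefSeq assembly mOryCun1.1, so which C1q chain it is was not settled. The number called higher was 2 without Perthes rabbit 1, 1 without Perthes rabbit 3, Perthes rabbit 5 or control rabbit 3, and 6 without Perthes rabbit 4. Without control rabbit 1 or 2 none of the 5 calls was made, although 7 and 5 of the 13 genes had an unadjusted edgeR p under 0.05. Without control rabbit 2, 0 genes of the whole table were called, while 1624 had an unadjusted p under 0.05 and were higher and 2098 were lower. Hence the counts of calls in the lists below were 0 without that rabbit. They were 0 without control rabbit 1 too, except in the lipid-laden list.

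The ligands, binding partners, relatives and sheddases of the 10 genes were largely without a call. Of the 16 genes listed for this, 13 were tested, and 1 was called higher and 2 lower (median log2 fold change 0.10). *SLC46A1*, the proton-coupled folate transporter, rose from 7.12 ± 0.647 to 29.6 ± 12.7 CPM (log2 fold change 2.06, SE 0.41, adjusted p = 0.0154). *SPN*, the sialoglycoprotein CD43 that is a ligand of SIGLEC1, fell from 123 ± 39.3 to 36.5 ± 12.2 CPM (log2 fold change -1.76, SE 0.31, adjusted p = 0.0133), and CD43 is carried by most white cells of the marrow. *ADAM10*, a membrane sheddase, fell from 183 ± 28.5 to 101 ± 19.7 CPM (-0.86, SE 0.20, adjusted p = 0.0228). Without Perthes rabbit 4, 4 of these genes were called higher, and without Perthes rabbit 3, Perthes rabbit 5 or control rabbit 3, 1 was called lower.

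Among the genes of that list without a call were the other TAM receptor *TYRO3* (log2 fold change 0.85, adjusted p = 0.0813), the TAM ligand *PROS1* (0.09) and the second TAM sheddase *ADAM17* (0.80, adjusted p = 0.0776). *GAS6* was not analysed here. *HAVCR1* (TIM-1), a relative of *TIMD4*, had a log2 fold change of 1.21 (adjusted p = 0.278). For *CD5L*, the lipid receptor *CD36* (1.39, adjusted p = 0.190) and the IgM joining chain *JCHAIN* (-0.04) were not called, and *FASN* was not analysed here. For *CD163*, neither haptoglobin *HP* (-1.32, adjusted p = 0.263) nor *TNFSF12* (TWEAK, 0.10) was called. Complement *C3*, whose fragments VSIG4 binds (1.00, adjusted p = 0.253), and the reduced folate carrier *SLC19A1* (0.09) were not called, and *FOLR1* was too low to be tested.

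**Figure D4:**
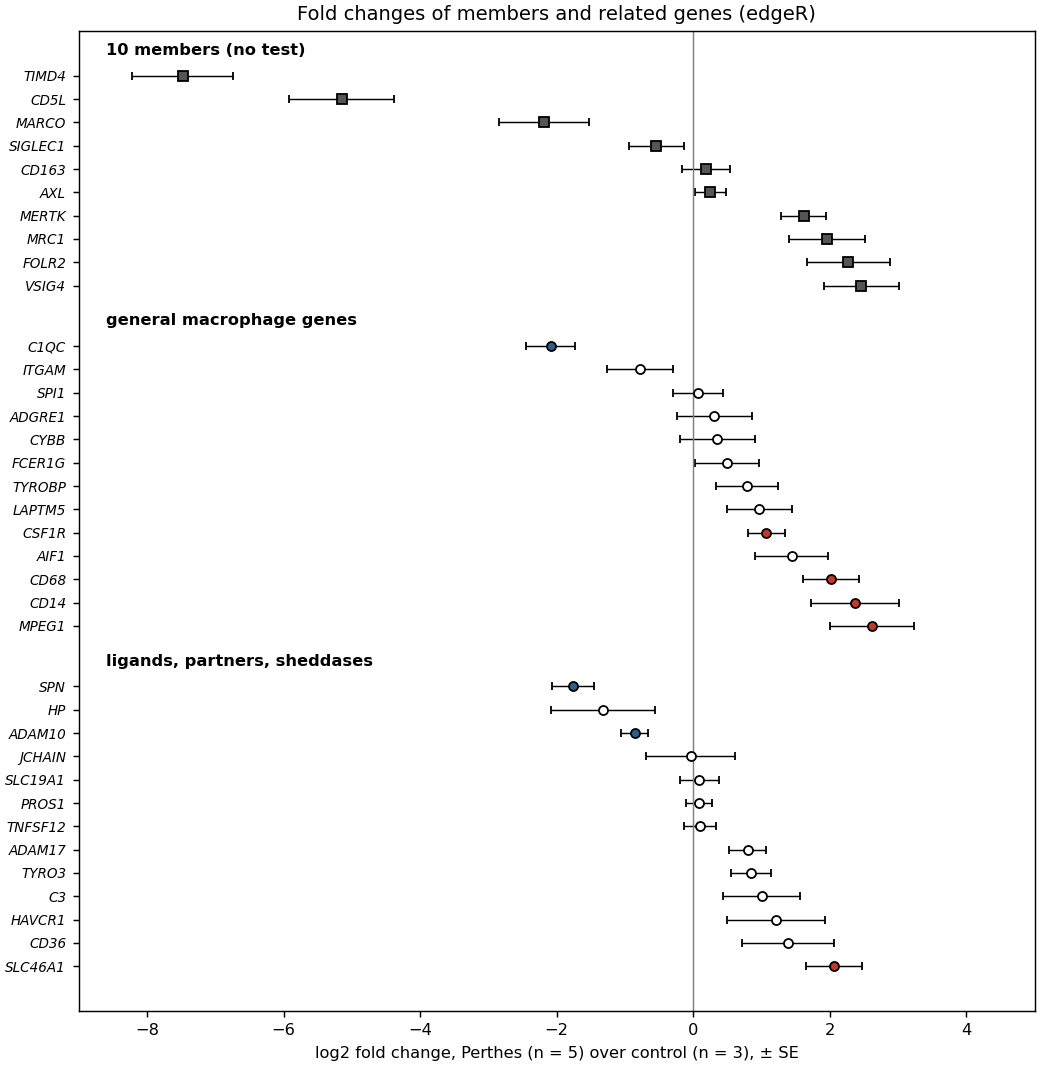
Log2 fold change (Perthes minus control, edgeR, bars give the SE) of the 10 genes, drawn as squares without a test, and of general macrophage genes and partners, drawn as circles; red circles were called higher, blue circles lower and white circles were not called at an adjusted p under 0.05. *TIMD4* (-7.48) and *CD5L* (-5.15) lay below every other gene drawn.

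Of 20 other genes of resident, erythroblast island and iron recycling macrophages, 2 were called higher and 1 lower (median log2 fold change 0.46). *HMOX1*, which degrades haem, rose from 49.3 ± 8.65 to 262 ± 138 CPM (log2 fold change 2.41, SE 0.49, adjusted p = 0.0165). *BLVRB*, a biliverdin reductase that is abundant in red cells, fell from 242 ± 55.5 to 103 ± 30.9 CPM (-1.23, SE 0.26, adjusted p = 0.0185). *SPIC*, the transcription factor of iron recycling macrophages (log2 fold change -0.66, adjusted p = 0.182), and *VCAM1*, an adhesion molecule of erythroblast islands (-1.34, adjusted p = 0.207), were not called. The iron exporter *SLC40A1* had a log2 fold change of -0.14. These 3 genes were named after their values were seen. The number called higher was 1 without Perthes rabbit 3, Perthes rabbit 5 or control rabbit 3, and the number called lower was 2 without Perthes rabbit 2 or 4 and 0 without Perthes rabbit 3.

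Of 19 other genes for recognising and engulfing dying cells, 4 were called higher and 2 lower (median log2 fold change 0.14). *STAB1*, a scavenger receptor that binds phosphatidylserine, rose from 170 ± 51 to 489 ± 195 CPM (log2 fold change 1.53, SE 0.45, adjusted p = 0.04996). *LRP1*, an endocytic receptor, rose from 1549 ± 317 to 3571 ± 432 CPM (1.20, SE 0.24, adjusted p = 0.0165), and *ITGAV*, an integrin chain that binds bridging proteins, rose by 1.05 (SE 0.27, adjusted p = 0.0313). The 2 that fell were *CD300A* (-1.23, SE 0.34, adjusted p = 0.0407), an inhibitory phosphatidylserine receptor, and *SCARB1* (-0.69, SE 0.17, adjusted p = 0.0279), a lipoprotein receptor. By CPM the groups overlapped for *STAB1* and *CD300A* but not for *LRP1*, *ITGAV* and *SCARB1*. *LRP1*, *ITGAV* and *SCARB1* are also used widely outside macrophages, and sinusoidal endothelium carries *STAB1* too. Without Perthes rabbit 3 and without Perthes rabbit 5, 2 and 1 of these genes were called higher and 0 lower, and 1 was called lower without Perthes rabbit 1, Perthes rabbit 4 or control rabbit 3.

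The liver X receptor *NR1H3* drives *CD5L* and, in some macrophages, *MERTK*. *NR1H3* itself was not called (log2 fold change 0.57, adjusted p = 0.306, groups overlapping). Of 9 other liver X receptor partners and targets, 5 were called higher and 1 lower (median log2 fold change 0.83). The phospholipid transfer protein *PLTP* rose from 43.4 ± 3.94 to 231 ± 106 CPM (log2 fold change 2.41, SE 0.46, adjusted p = 0.0142) and *APOE* from 26.0 ± 13.6 to 131 ± 59.1 CPM (2.33, SE 0.55, adjusted p = 0.0254). The sterol exporter *ABCG1* rose by 1.36 (SE 0.38, adjusted p = 0.0444). By CPM the groups overlapped for *APOE* and *ABCG1* but not for *PLTP*. *LPCAT3*, which remodels membrane phospholipids, fell from 78.0 ± 6.53 to 36.2 ± 7.06 CPM (-1.11, SE 0.18, adjusted p = 0.0123). The second receptor *NR1H2* (0.15) and the targets *MYLIP* (0.11) and *SREBF1* (0.07) were not called. The number called higher was 3 without Perthes rabbit 1, 1 without Perthes rabbit 3 or 5, and 2 without control rabbit 3.

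Of 11 genes of blood monocytes and their entry, 2 were called higher and 5 lower (median log2 fold change -1.05). *CCL2*, the chemokine that draws monocytes, rose from 0.102 ± 0.0999 to 1.51 ± 0.746 CPM (log2 fold change 3.81, SE 0.79, adjusted p = 0.0176), a low level, and the proteoglycan *VCAN*, which cartilage also makes, rose by 1.13 (SE 0.29, adjusted p = 0.0306). *S100A8* (-3.76, adjusted p = 0.0439) and *S100A9* (-3.69, adjusted p = 0.0453) fell, and neutrophils carry both at high levels as well. Neutrophil lineage markers were lower in every Perthes rabbit, as given above, and their part in both differences was not tested. Without Perthes rabbit 3, Perthes rabbit 5 or control rabbit 3, 1 gene was called higher, and 3, 2 and 2 were called lower. Of 8 genes of lipid-laden macrophages, 6 were called higher and 0 lower (median log2 fold change 2.71), with *GPNMB* at 7.54 (SE 0.98, adjusted p = 0.0118), *TREM2* at 5.49 (SE 0.82, adjusted p = 0.0118) and *LGALS3* at 4.84 (SE 0.70, adjusted p = 0.0118). Without control rabbit 1, 2 of them were called higher. The genes of this list too were chosen with earlier results of these data known, so their calls are a description. Osteoclasts carry *GPNMB* and *LGALS3* too. Their 7 markers summed to 1548 to 4335 CPM in Perthes disease and 750 to 1297 CPM in controls, none at 0. *CTSK* made up most of that sum, with a mean of 2388 CPM in Perthes disease and 672 CPM in controls. Of the 7 markers, 2 were higher in every Perthes rabbit and the others overlapped. The part of osteoclasts was not tested.

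Each of 3 members was compared with the 12309 other tested genes that carry a symbol rather than only an identifier. These genes were ranked by how closely their log2 CPM, centred on the mean over the 8 libraries, followed that member. The root mean square difference was the measure. The 5 nearest *TIMD4* were *INMT* (1.05), *CD5L* (1.13), *LBP* (1.43), *CLEC4G* (1.55) and *MPIG6B* (1.94). The 5 nearest *CD5L* were *INMT* (0.77), *CLEC4G* (0.89), *ALOX15* (0.98), *COL4A3* (1.01) and *VIL1* (1.09). *INMT*, a methyltransferase, averaged 0.239 ± 0.285 CPM in Perthes disease (median 0.0734 CPM, under the floor of 3 counts) and 10.3 ± 5.94 CPM in controls. *CLEC4G*, a lectin of sinusoidal endothelium, averaged 0.444 ± 0.76 CPM in Perthes disease (median 0.135 CPM), at 0 in rabbit 4, and 9.15 ± 6.45 CPM in controls. Perthes rabbit 2 held 57.6% of the *INMT* counts and 80% of the *CLEC4G* counts of its group. *TIMD4* itself was above the floor only in Perthes rabbits 2 and 5. The ranks of *INMT* and *CLEC4G* thus rest in part on values near the floor and are not read further. The summed endothelial list of 9 genes, which holds *CLEC4G*, overlapped between the groups (309 to 466 against 368 to 462 CPM). *CLEC4G* is a small part of that sum, which cannot show a change of sinusoids alone. Of the 9 genes, 4 had a log2 fold change above 0 and 5 below. *STAB2* averaged 42.2 ± 43.7 CPM in Perthes disease and 98.6 ± 32.0 CPM in controls, and *VWF* 51.6 ± 30.9 and 17.1 ± 0.938 CPM, neither called. The 5 nearest *VSIG4* were *CCL20* (0.28), *FTL* (0.29), *CD274* (0.31), *CXCL16* (0.34) and *KIF5C* (0.34). *CCL20* averaged 0.481 ± 0.343 CPM in Perthes disease and had 0.0333 to 0.0357 CPM in controls, under the floor of 3 counts. Its fitted log2 fold change was 3.64, against 2.46 for *VSIG4*, so its first rank rests on values near the floor and is not read further.

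In the gene order of mOryCun1.1, *TIMD4* lies beside its relatives *HAVCR1* and *HAVCR2* (TIM-3). Both relatives had fitted fold changes above 0 without a call. *HAVCR2* had 1.20 ± 0.327 CPM in Perthes disease and 0.555 ± 0.0856 CPM in controls (adjusted p = 0.0592), and *HAVCR1* is given above. The gene ID listed as *FOLR2* carries no gene symbol in mOryCun1.1, only an identifier, so its name rests on the deposited table. It lies beside *FOLR1*, which was too low to be tested.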

How the data were processed

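Total RNA of the rabbit femoral head was sequenced in 8 libraries (5 Perthes, 3 control) after ribosomal RNA removal with a directional kit. The authors deposited expected counts per gene, estimated by RSEM (version 1.1.17) after HISAT2 (2.0.4) alignment, tools named in the submitters' processing notes. Up to 10.7% of the values in a library were not whole, so the counts were rounded. The table repeats its 8 count columns in 8 further per-sample columns with identical values, which were not used. Columns of the authors' own comparisons (fold changes, p-values) and the small RNA table were not used.

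Counts were filtered with filterByExpr, scaled by TMM and tested with the quasi-likelihood F-test of edgeR (4.0.16, R 4.3.3) for Perthes against control with no covariate. P-values were adjusted by Benjamini-Hochberg over 15305 genes, a call being an adjusted p under 0.05. The SE was derived from the fold change and its F value. The biological coefficient of variation was 0.361. Log2 CPM used a prior count of 2, and 3 counts per library were taken as the floor, which covers counting error only. The test script was checked on simulated counts.

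The 10 genes and the 7 other gene lists were chosen with earlier results of these data known, and set tests were not run. Named were the 10 genes, all genes of the partners list, up to 3 genes called higher and 3 called lower with the largest fold change from each other list, and the 5 genes nearest to *TIMD4*, *CD5L* and *VSIG4*. Some genes that this rule names are counted in their lists but not reported here. The third control is titled replicate 2 in the labels with a code ending in 3, and was taken as replicate 3. Nothing in the labels gives batches. Same-numbered Perthes and control libraries did not deviate together (r = -0.317, 0.161 and -0.238), so they were not treated as pairs. Of the listed genes, 7 were matched by RefSeq gene ID because the table carries them under an identifier. Transcript lengths were not used. Summed CPM of lists, and the share of a gene in such a sum, are therefore weighted toward long and abundant transcripts. Apart from these sums, levels were not compared between genes. Alternatives were other scalings and filters, DESeq2 (1.42.0), the replicate number as a block, other macrophage denominators and leaving out each rabbit.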

Additional observations from a re-analysis of the deposited data

Results flagged for a closer look

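Within the 5 Perthes rabbits, a rabbit was marked where its gap to the nearest other, divided by the whole range, was over 0.71 (Dixon, log2 CPM). Chance marks about 1 in 20 such groups, and 17 were looked at. For *CD5L*, Perthes rabbit 2 stood above the others at 2.17 log2 CPM (gap over range 0.889). For *FOLR2*, Perthes rabbit 4 stood below the others at 4.36 log2 CPM (0.749). For the summed lipid-laden macrophage genes, Perthes rabbit 4 stood below the others at 11.51 log2 summed CPM (0.749).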

How the results depend on the processing

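Every gene call rested on 3 controls. With the replicate number as a block, 0 genes were called in either direction over all genes, and so 0 in each of the 7 lists. The smallest adjusted edgeR p was 0.0573, while 1504 genes higher and 1648 lower had an unadjusted edgeR p under 0.05. In that fit, Perthes rabbits without a same-numbered control do not bear on the group difference, and fewer residual degrees of freedom are left. Their part in the loss of calls was not tested. Without control rabbit 2, 0 genes were called too. Leaving out each rabbit in turn, between 0 and 1267 genes of the whole table were called higher and between 0 and 1628 lower. Calls numbered 0 to 4 higher and 0 to 3 lower for the partners, 0 to 6 and 0 to 1 for the general macrophage genes, 0 to 3 and 0 to 2 for the resident macrophage list, 0 to 5 and 0 to 2 for the engulfment genes, 0 to 5 and 0 to 1 for the liver X receptor list, 0 to 3 and 0 to 5 for the monocyte genes, and 0 to 6 and 0 to 0 for the lipid-laden list. Of the 10 genes, 2 to 5 lay higher and 2 to 3 lower in every Perthes rabbit by CPM, and 2 to 3 and 3 to 4 per macrophage signal.

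DESeq2 called 1700 genes higher over all genes (edgeR 951), 3 partners and 4 resident macrophage genes. With library totals for scaling, 3 liver X receptor genes were called higher and the median log2 fold change over all genes was -0.06. With at least 10 counts in every library, 1 monocyte gene was called higher. Per summed CPM of *CD68*, *CSF1R* and *ADGRE1* alone, 0 of the 10 lay higher and 6 lower (0.758% and 50.9% of all genes tested), and without C1q genes in the denominator 1 lay higher and 4 lower (0.908% and 13.8%). The log2 fold change of *CD163* (0.19) was -0.15 without Perthes rabbit 1, and per macrophage signal the log2 ratio of means was -0.67 for *CD163* and -0.74 for *AXL* (0.25 as a log2 fold change by CPM), or -1.16 and -1.10 with the 3-gene denominator. No fold change of *TIMD4*, *CD5L*, *FOLR2*, *MERTK*, *MRC1* or *VSIG4* changed sign under any alternative run.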
